A study of Rattus norvegicus with 6 samples.

Results

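The WNT genes described here are those whose symbols in the deposited table name a WNT ligand, a Frizzled receptor, the co-receptors Lrp5 and Lrp6, a secreted inhibitor of the Sfrp or Dkk families, an Axin, beta-catenin (Ctnnb1) or a TCF/LEF transcription factor. They were chosen by symbol alone, and 45 of the 22608 symbols in the table matched. Poly(A) RNA from rat primary astrocytes was sequenced in 3 libraries treated with β-hydroxybutyrate (BHB), the main circulating ketone body, and 3 control libraries. The dose, read from the column names, was 2 mM BHB. The sources used here do not give age, strain, sex, the time of treatment or what the controls received. Nor do they say whether each library had its own culture or animal, so a p-value speaks only of the variation among these 6 libraries, part of which may be technical. Values are FPKM (fragments scaled by transcript length and by the mapped fragments of the library), a unit in which levels may be compared between genes. The depth of the libraries is unknown.

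WNT ligands are secreted lipid-modified proteins that bind Frizzled receptors together with Lrp5 or Lrp6. In the canonical branch this stops the destruction complex, built on Axin, from degrading beta-catenin, which then enters the nucleus and activates genes with TCF/LEF factors, Axin2 and Dkk1 among them. Sfrp proteins bind the ligands outside the cell, and Dkk proteins of the Dkk1 type block Lrp5 and Lrp6. In the brain, astrocytes and their precursors both make and receive WNT signals, and Wnt7a and Wnt7b act on the growth of brain vessels in mice.

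No expressed WNT gene passed a test of the difference between BHB and control astrocytes, and nearly all had intervals that kept the difference small. Of the 45 genes, 22 reached the minimum for testing (1 FPKM or more in 3 or more of the 6 libraries), and these were also the 22 whose mean reached 1 FPKM in either group. The test (limma on log2(FPKM + 1), Benjamini-Hochberg adjusted over all 12373 genes tested) called 0 of the 22, with adjusted p-values of 0.881 to 0.997. Over all genes tested, 7 passed, or 0.0566%, with 0.0485% higher and 0.00808% lower with BHB. At an unadjusted p under 0.05 there were also 0 of the 22, where 5.59% of all genes tested fell. The log2 fold changes (BHB over control, on the log2(FPKM + 1) scale, which understates changes of low genes) lay above 0 in 12 of the 22 and below 0 in 10, where 51.5% of all genes tested lay above 0, with a median of 0.01 beside a median of 0.0029 over all genes tested. The 95% interval lay within a 1.5-fold change in either direction for 21 of the 22, as it did for 96.7% of all genes tested, and within a 1.25-fold change for 19, as for 78.3%. These folds are on the same log2(FPKM + 1) scale.

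**Figure D1:**
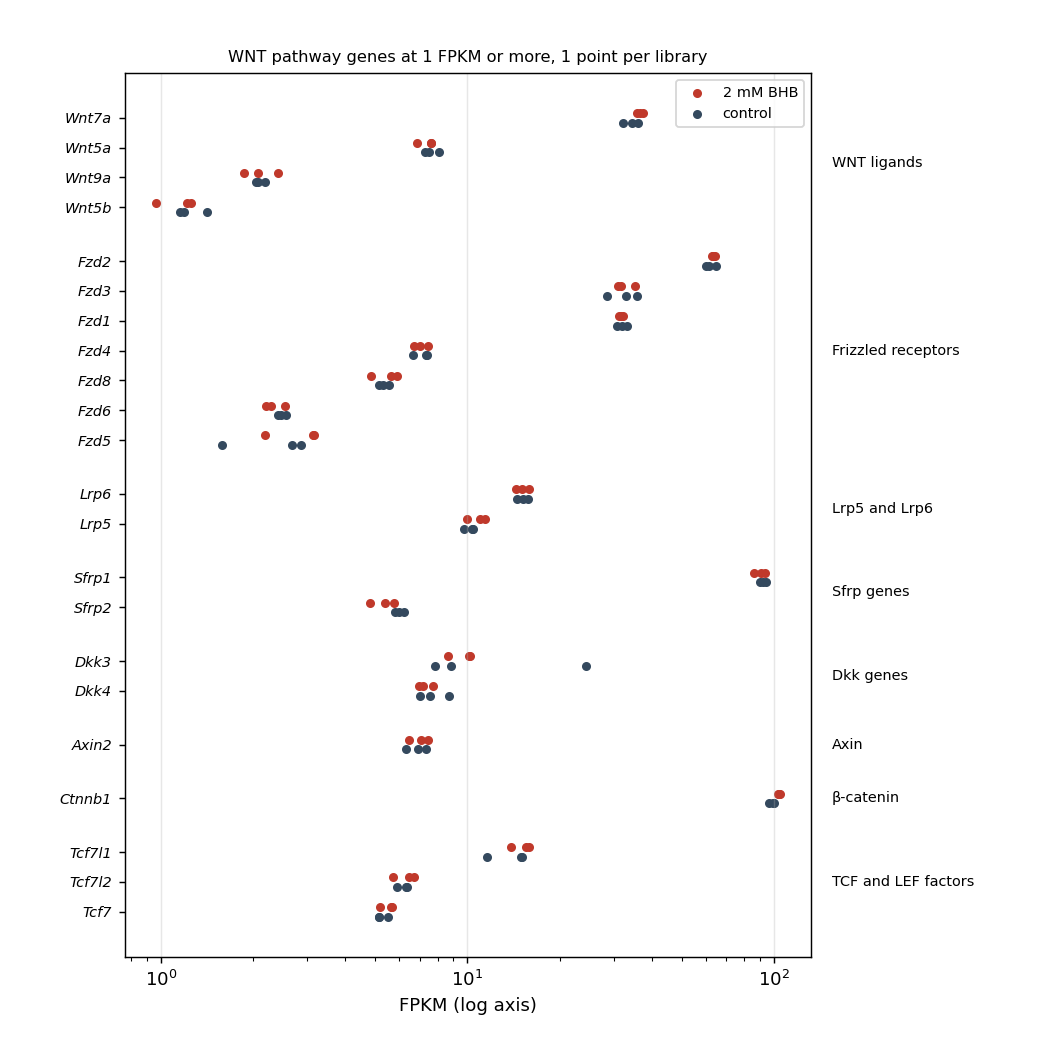
FPKM of the 22 WNT genes tested, on a log axis, with 1 point per library, red for 2 mM BHB and dark blue for control. The groups overlap in 20 of the 22 genes, and Dkk3 has a single control library, at 24.4 FPKM, far above the others.

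Axin2 and Dkk1 are textbook feedback targets of beta-catenin and TCF/LEF factors, and their promoters are shown because they hold the letters that these factors bind. The 250 bases before the start of the gene were taken from RefSeq (build GRCr8, whereas the submitters' processing notes name rn6). A promoter was found for 32 of the 45 genes, 13 of them tested. The strings CTTTGAA and CTTTGAT, the core that TCF/LEF factors recognise, were searched on both strands, and no other motif was searched. At least 1 match was present in 3 of the 32 promoters (Axin2, Dkk1 and Wnt8a) and in 1 of the 13 of tested genes, beside 7.58% of all 27457 promoters. Axin2 held 2 matches, beginning 232 and 132 bases before the start, and Dkk1 held 1, beginning 96 bases before it. Both sequences run 5′ to 3′ on the strand of the gene, with the matches in capitals.
Axin2, chr10:94398535-94398784, plus strand: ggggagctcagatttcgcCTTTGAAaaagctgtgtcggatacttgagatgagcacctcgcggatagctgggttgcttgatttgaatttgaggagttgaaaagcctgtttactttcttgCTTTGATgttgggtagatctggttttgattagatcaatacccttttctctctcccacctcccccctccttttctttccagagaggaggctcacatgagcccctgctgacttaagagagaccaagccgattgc
Dkk1, chr1:237798651-237798900, minus strand: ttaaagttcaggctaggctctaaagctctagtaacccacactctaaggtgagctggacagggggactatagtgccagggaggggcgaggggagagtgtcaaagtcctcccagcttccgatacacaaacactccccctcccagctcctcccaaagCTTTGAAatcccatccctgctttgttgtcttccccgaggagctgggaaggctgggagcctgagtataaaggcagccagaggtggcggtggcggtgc
A match describes letters and is not evidence of binding.

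Axin2 encodes a scaffold of the destruction complex and is often read as a gauge of canonical signalling. Its level was 7.06, 6.44 and 7.46 FPKM in the BHB libraries, against 7.32, 6.33 and 6.90 FPKM in the control libraries. The groups overlapped throughout, and the lowest library of each was its second. The log2 fold change was 0.02 (SE 0.0775, 95% interval -0.15 to 0.20, limma adjusted p = 0.974). Dkk1, the other gene shown, was listed at 0 in 5 libraries and at 0.0555 FPKM in control 1. Axin1, the other Axin gene, was not analysed here.

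The ligands were dominated by Wnt7a. Wnt7a stood at 37.3, 35.7 and 36.5 FPKM in the BHB libraries and at 36.0, 34.4 and 32.2 FPKM in the control libraries, so 1 control lay above the lowest BHB library. The log2 fold change was 0.09 (SE 0.0526, 95% interval -0.03 to 0.21, limma adjusted p = 0.890), with p = 0.2 in an exact two-sided permutation test. Without control 3, its lowest library, the log2 fold change was 0.0524. Wnt7a made up 74.4% ± 2.53 of the summed ligand FPKM with BHB and 73.2% ± 1.09 in controls (SD, n = 3 each). Wnt5a, a ligand best known for the branch that does not use beta-catenin, came next, at 6.87, 7.64 and 7.63 FPKM with BHB and 7.27, 8.05 and 7.48 FPKM in controls (log2 fold change -0.04, limma adjusted p = 0.949). Wnt9a, at 2.08, 2.42 and 1.87 FPKM with BHB and 2.08, 2.04 and 2.19 FPKM in controls, followed (log2 fold change 0.0057, limma adjusted p = 0.996). Wnt5b, the close relative of Wnt5a, was the lowest ligand tested, at 1.25, 0.965 and 1.21 FPKM with BHB and 1.16, 1.41 and 1.19 FPKM in controls (log2 fold change -0.07, limma adjusted p = 0.932). Each of these 4 ligands lay above the next in all 6 libraries, from the lowest Wnt7a value of 32.2 FPKM against the highest Wnt5a value of 8.05 FPKM to the lowest Wnt9a value of 1.87 FPKM against the highest Wnt5b value of 1.41 FPKM.

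The other 15 ligands were under the minimum. Wnt1, Wnt3, Wnt3a, Wnt8a, Wnt9b, Wnt10a and Wnt10b, the 7 listed at 0 in every library, include Wnt1 and Wnt3a, which are standard activators of the beta-catenin branch. Wnt2, Wnt2b, Wnt6, Wnt7b, Wnt8b and Wnt11 stayed under 1 FPKM in every library. Among these Wnt7b, the close relative of Wnt7a, was at 0.364, 0.386 and 0.414 FPKM with BHB and 0.679, 0.309 and 0.238 FPKM in controls. Wnt6 was listed at 0, 0.0337 and 0.133 FPKM with BHB and at 0 in the 3 controls. The remaining pair, Wnt4 and Wnt16, varied widely between libraries of the same group. Wnt4 was at 0.0834, 1.12 and 0.763 FPKM with BHB and 0.359, 0.191 and 0.467 FPKM in controls, so that BHB held both its lowest and its highest library. The value in BHB 2 was the only one of an untested gene above 1 FPKM. Wnt16 was at 0.102, 0.674 and 0.779 FPKM with BHB and 0.643, 0.874 and 0.0135 FPKM in controls, with 1 low library in each group. Summed over the 19 ligands, the level was 48.3, 49.3 and 49.6 FPKM with BHB and 48.4, 47.6 and 44.1 FPKM in controls, a ratio of means of 1.05.

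**Figure D2:**
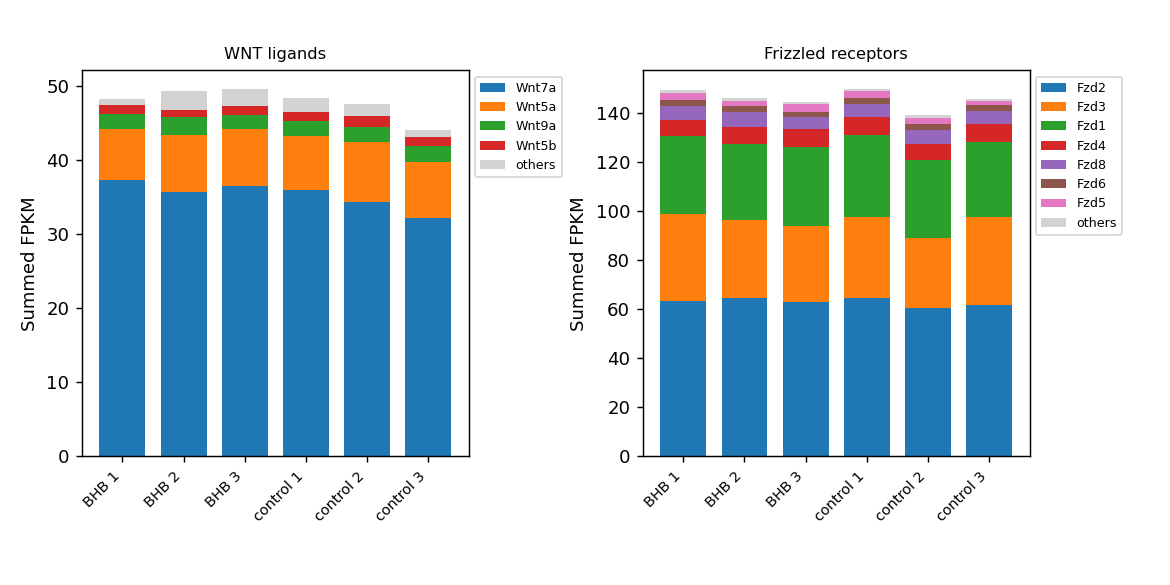
Summed FPKM of the WNT ligands (left) and Frizzled receptors (right) in each library, BHB libraries first, with colours for the genes tested and grey for the rest. Wnt7a fills most of each ligand bar, and Fzd2, Fzd3 and Fzd1 fill most of each Frizzled bar, with sums of 144.4 to 149.0 FPKM with BHB and 139.1 to 149.8 FPKM in controls.

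Frizzled receptors were expressed at a higher summed level than the ligands, and 7 of 10 were tested, 4 above and 3 below 0. Fzd2 led with 63.3, 64.4 and 62.8 FPKM in the BHB libraries and 64.7, 60.2 and 61.6 FPKM in the control libraries (log2 fold change 0.03, 95% interval -0.07 to 0.13, limma adjusted p = 0.936). It held 43.4% ± 0.870 of the summed Frizzled FPKM with BHB and 42.9% ± 0.569 in controls (SD, n = 3 each). Fzd3, needed for axon guidance and planar polarity in mice, was at 35.3, 31.7 and 31.1 FPKM with BHB and 32.9, 28.5 and 35.8 FPKM in controls (log2 fold change 0.02, limma adjusted p = 0.987). Fzd1, the closest relative of Fzd2 among these genes besides Fzd7, was at 31.8, 31.2 and 32.1 FPKM with BHB and 33.1, 31.8 and 30.7 FPKM in controls (log2 fold change -0.0083, limma adjusted p = 0.987). Fzd2 lay above both in every library, while the ranges of Fzd3 and Fzd1 overlapped, so no order between them is given.

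Lower in the order, Fzd4, the receptor of norrin as well as of WNTs, was at 6.71, 7.0 and 7.45 FPKM with BHB and 7.38, 6.62 and 7.32 FPKM in controls. Fzd8 was at 5.61, 5.88 and 4.85 FPKM with BHB and 5.29, 5.55 and 5.15 FPKM in controls, under Fzd4 in all libraries. Neither passed, with log2 fold changes of -0.0098 for Fzd4 (limma adjusted p = 0.989) and 0.02 for Fzd8 (limma adjusted p = 0.978). Fzd6 was at 2.29, 2.55 and 2.21 FPKM with BHB and 2.42, 2.47 and 2.56 FPKM in controls (log2 fold change -0.06, limma adjusted p = 0.936). Fzd5 overlapped it and, of the 7 Frizzled genes tested, had the widest ratio of its highest to its lowest library (1.99), at 3.15, 2.18 and 3.16 FPKM with BHB and 2.86, 2.68 and 1.58 FPKM in controls. The log2 fold change of Fzd5 was 0.19 with a 95% interval of -0.20 to 0.58 (limma adjusted p = 0.910), and 0.01 without control 3, its lowest library.

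Fzd7, Fzd9 and Fzd10 were under 1 FPKM in every library. Fzd10 was at 0.736, 0.798 and 0.680 FPKM with BHB and 0.796, 0.731 and 0.845 FPKM in controls. Fzd7 was listed at 0 in 5 libraries and at 0.0917 FPKM in control 1. Fzd9 was at 0.139, 0.0910 and 0.0884 FPKM with BHB and 0.241, 0.402 and 0.164 FPKM in controls, so that all BHB libraries lay below all controls. With no minimum on FPKM its log2 fold change was -0.19 (unadjusted p = 0.0270, limma adjusted p = 0.887), and the exact two-sided permutation p was 0.1, the smallest that 3 against 3 allows.

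Both co-receptors were expressed, and neither passed. Lrp6 was at 15.1, 14.5 and 15.8 FPKM with BHB and 15.7, 14.6 and 15.2 FPKM in controls (log2 fold change -0.0024, 95% interval -0.13 to 0.13, limma adjusted p = 0.997). Lrp5 was at 10.0, 11.4 and 11.0 FPKM with BHB and 10.4, 10.4 and 9.77 FPKM in controls (log2 fold change 0.08, 95% interval -0.07 to 0.23, limma adjusted p = 0.910). Lrp6 was above Lrp5 in every library.

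**Figure D3:**
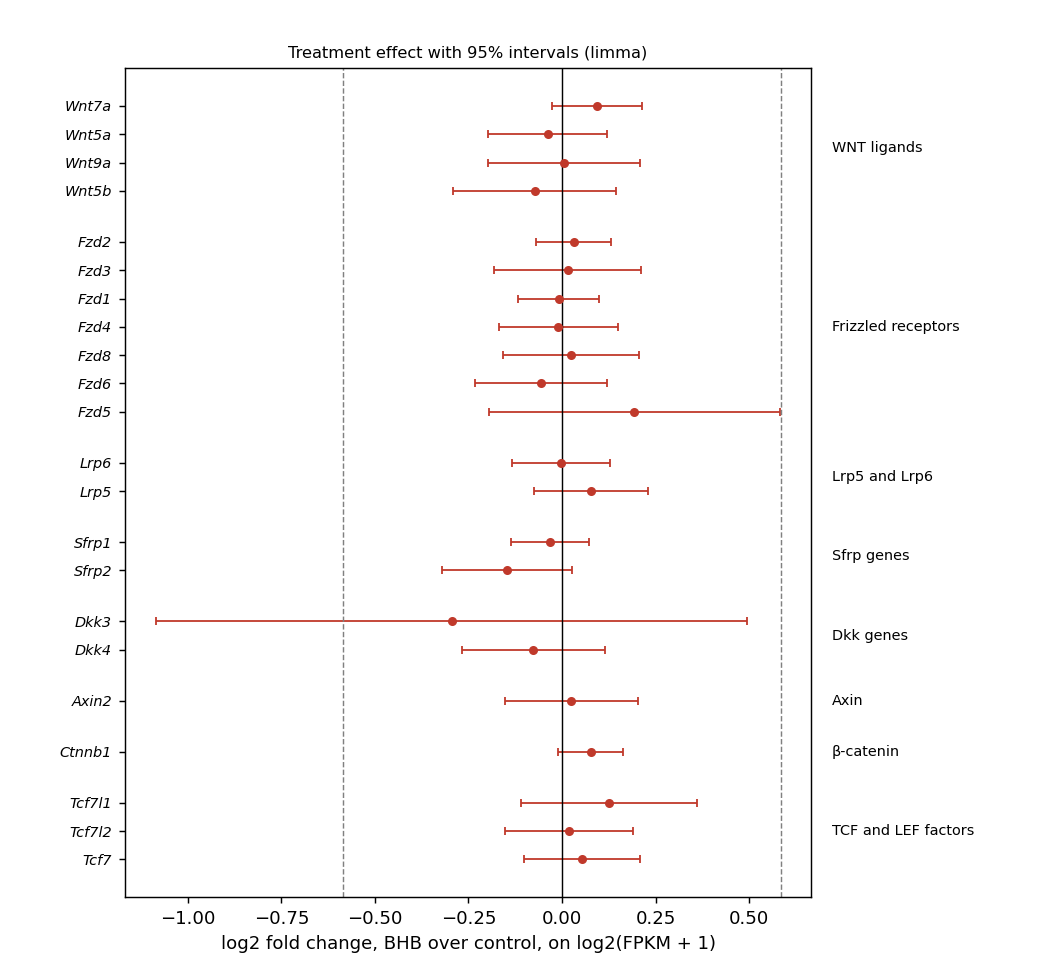
Log2 fold changes (BHB over control, on log2(FPKM + 1)) of the 22 genes tested, with 95% intervals from limma and dashed lines at a 1.5-fold change. Each interval includes 0, and that of Dkk3 is the only one that crosses a dashed line.

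Among the secreted inhibitors, Sfrp1 was second only to Ctnnb1 of all these genes, and it lay above 97.0% of the symbols in the table. It stood at 93.5, 86.0 and 91.0 FPKM in the BHB libraries and at 94.3, 91.8 and 90.4 FPKM in the control libraries (log2 fold change -0.03, 95% interval -0.14 to 0.07, limma adjusted p = 0.937). Sfrp2, its close relative, was far lower, at 5.38, 4.81 and 5.76 FPKM with BHB and 6.19, 5.79 and 5.96 FPKM in controls. Every BHB library of Sfrp2 lay below every control, the highest BHB value (5.76 FPKM) just under the lowest control (5.79 FPKM). The log2 fold change was -0.15 (SE 0.0756, 95% interval -0.32 to 0.03, unadjusted p = 0.0863, limma adjusted p = 0.890). The groups overlapped when the libraries were scaled to equal sums, and the log2 fold change was -0.0885 without BHB 2. Sfrp4 and Sfrp5 were under 1 FPKM in all libraries, at most 0.216 FPKM with BHB and 0.246 FPKM in controls.

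Of the Dkk genes, Dkk4, which like Dkk1 binds Lrp6, was at 7.71, 7.19 and 6.96 FPKM with BHB and 7.01, 8.71 and 7.58 FPKM in controls (log2 fold change -0.08, 95% interval -0.27 to 0.11, limma adjusted p = 0.918). Dkk3, the divergent member of the family, was at 10.1, 8.64 and 10.2 FPKM with BHB and 24.4, 8.85 and 7.86 FPKM in controls. Control 1 thus stood 2.39-fold or more above each other library, and it set the sign of the difference. Mog, a marker of oligodendrocytes, was at 0.374, 0.263 and 0.529 FPKM with BHB, against 5.47, 0.22 and 0.382 FPKM in controls 1 to 3, so control 1 stood apart there too, and its part in the Dkk3 value was not tested. With control 1 the log2 fold change of Dkk3 was -0.29 (95% interval -1.09 to 0.50, limma adjusted p = 0.921), and without it 0.19. Dkk2 was at 0.441, 0.343 and 0.265 FPKM with BHB and 0.366, 0.235 and 0.216 FPKM in controls, with overlapping groups.

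Ctnnb1, which encodes beta-catenin, was the most abundant of the 45 genes and had the smallest p among the 22 tested. It stood at 103.7, 104.6 and 103.2 FPKM in the BHB libraries and at 96.4, 99.9 and 99.0 FPKM in the control libraries, so all 3 BHB libraries lay above all 3 controls. The BHB mean was 1.06 times the control mean. Ctnnb1 did not pass, with a log2 fold change of 0.08 (SE 0.0377, 95% interval -0.0097 to 0.16, unadjusted p = 0.0749, limma adjusted p = 0.881). An exact permutation test (two-sided) gave p = 0.1, the smallest possible here. Ctnnb1 and Sfrp2 were the 2 of 22 tested genes whose groups did not overlap, or 9.09%, a share near the 10.9% of all genes tested. Ctnnb1 was the only one higher in all BHB libraries, where 6.43% of all genes tested were, and Sfrp2 the only one lower, where 4.45% were.

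The nuclear partners of beta-catenin were led by Tcf7l1, known mainly as a repressor. It was at 13.8, 15.5 and 15.9 FPKM with BHB and 15.0, 14.9 and 11.6 FPKM in controls (log2 fold change 0.12, 95% interval -0.11 to 0.36, limma adjusted p = 0.906). Without control 3, its lowest library, that log2 fold change was 0.0087. Tcf7l2 was at 6.43, 5.71 and 6.71 FPKM with BHB and 6.33, 6.36 and 5.87 FPKM in controls (log2 fold change 0.02, limma adjusted p = 0.981). Tcf7 was at 5.69, 5.19 and 5.63 FPKM with BHB and 5.15, 5.52 and 5.13 FPKM in controls (log2 fold change 0.05, limma adjusted p = 0.927). Tcf7l1 lay above the others in all libraries, and the lowest Tcf7l2 value (5.71 FPKM) was barely above the highest Tcf7 value (5.69 FPKM). Lef1, the fourth member of the family, was under 1 FPKM, at 0.239, 0.295 and 0.219 FPKM with BHB and 0.263, 0.253 and 0.209 FPKM in controls.

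**Figure D4:**
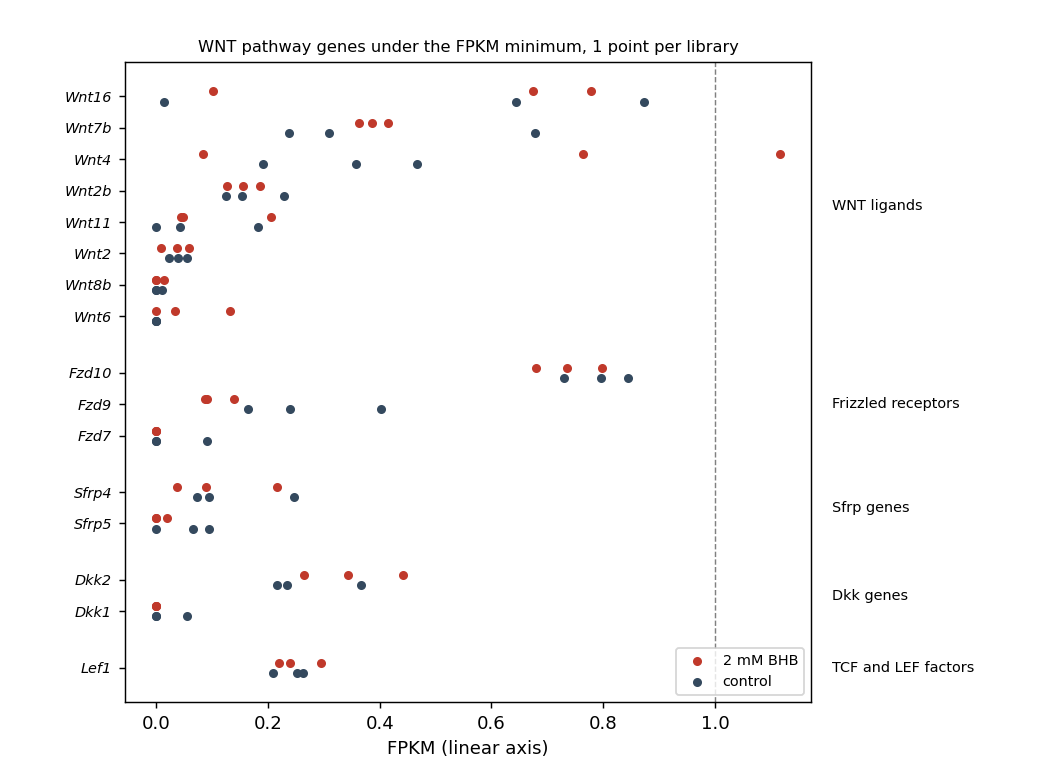
FPKM on a linear axis of the 16 WNT genes that were under the minimum but not listed at 0 in every library, with 1 point per library and a dashed line at 1 FPKM. A single point, Wnt4 in BHB 2, lies above the line, and Fzd9 is the only gene whose groups do not overlap.

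The rest of the pathway was read from lists of 117 symbols by role, in which Aes, Wisp1 and Wisp2 also stand under newer names that the table does not use. Of these 111 were in the table and 86 were tested. None passed in either direction in limma (lowest adjusted p 0.881), and 45 lay above and 41 below 0, with a median log2 fold change of 0.0019. At an unadjusted p under 0.05 there was 1, or 1.16%, beside 5.59% of all genes tested. The groups did not overlap in 12, or 14.0%, beside 10.9%. These were Adgra2, Reck, Csnk1d, Dvl1, Tle3, Cd44, Jun and Fosl1, higher in all BHB libraries, and Tle1, Prickle2, Daam1 and Sox9, lower in all of them, of which Tle3, Prickle2, Cd44, Jun and Sox9 are named after their values were seen.

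Genes of ligand export were well expressed. Wls, which carries WNTs to the cell surface, was at 111.4, 107.3 and 105.4 FPKM with BHB and 105.8, 107.8 and 112.8 FPKM in controls (limma adjusted p = 0.982). Porcn, the enzyme that adds the lipid, was at 11.0, 11.0 and 11.3 FPKM with BHB and 9.98, 11.1 and 11.2 FPKM in controls (limma adjusted p = 0.937). Those 2 were the only tested members of the list of secretion and processing. In the list of R-spondins and receptor turnover only Lgr4, an R-spondin receptor, and Znrf3, a ligase that removes Frizzleds, were tested, with log2 fold changes of 0.04 and 0.06 (limma adjusted p = 0.943 and 0.937). All 4 R-spondin genes and the receptor genes Lgr5 and Lgr6 were under the minimum.

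Among other inhibitors 5 of 8 tested lay above 0. Apcdd1, a membrane inhibitor of WNT signalling, was the most abundant, at 18.4, 19.2 and 18.1 FPKM with BHB and 19.8, 19.3 and 17.4 FPKM in controls. The smallest p in that list belonged to Sostdc1 (log2 fold change -0.10, limma adjusted p = 0.905) and Sost (0.14, limma adjusted p = 0.917), 2 related antagonists that bind Lrp5 and Lrp6.

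Among co-receptors 3 of 9 tested lay above 0, and the pair that in mice serves as co-receptor for Wnt7a and Wnt7b had the smallest p. Adgra2, an adhesion receptor, was at 9.03, 9.98 and 9.90 FPKM with BHB and 6.77, 8.70 and 9.02 FPKM in controls. Reck, a membrane-anchored glycoprotein, was at 6.15, 7.19 and 6.54 FPKM with BHB and 6.03, 5.79 and 5.94 FPKM in controls. In both genes all BHB libraries lay above all controls, for Adgra2 by a margin of 0.0174 FPKM. The log2 fold changes of 0.22 (95% interval -0.0077 to 0.45) for Adgra2 and 0.14 (95% interval -0.02 to 0.30) for Reck did not pass (limma adjusted p = 0.881 and 0.890). Each was smaller without 1 library, at 0.11 for Adgra2 without control 1 and 0.0861 for Reck without BHB 2. Lrp4, the most abundant of the list, was at 70.1, 69.5 and 72.8 FPKM with BHB and 73.2, 72.5 and 72.1 FPKM in controls.

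Downstream, 9 of 21 tested genes of the destruction complex and Dishevelled lay above 0. Dvl1, one of the Dishevelled genes that relay the signal from Frizzled, was the single pathway gene at an unadjusted p under 0.05. It was at 17.9, 20.2 and 19.4 FPKM with BHB and 17.5, 17.0 and 17.0 FPKM in controls, without overlap. The log2 fold change was 0.15 (95% interval 0.02 to 0.28, unadjusted p = 0.0297, limma adjusted p = 0.881). The casein kinase genes Csnk1d and Csnk1a1 had 0.06 and -0.02, and Csnk1a1 was the most abundant of the list at means of 307.5 FPKM with BHB and 312.3 FPKM in controls. Among nuclear cofactors 9 of 16 lay above 0, with the smallest p for the corepressor Tle1 (-0.13, limma adjusted p = 0.890) and the beta-catenin inhibitor Ctnnbip1 (0.10, limma adjusted p = 0.890). Cdh2, the cadherin that holds beta-catenin at the membrane, was the most abundant there, at 261.6, 251.9 and 261.2 FPKM with BHB and 270.1, 261.0 and 260.9 FPKM in controls.

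Of 13 planar polarity genes, all tested, 8 lay above 0. Daam1, a formin bound by Dishevelled, had a log2 fold change of -0.11 with groups that did not overlap, and Prickle3 had -0.23 (-0.14 without BHB 2) with groups that did (limma adjusted p = 0.887 and 0.890). The most abundant, Vangl2, was at 27.9, 27.0 and 27.8 FPKM with BHB and 28.2, 27.7 and 26.8 FPKM in controls. Of 15 target genes tested 8 lay above 0, with a median of 0.0068. Fosl1, an AP-1 subunit that other signals also drive, was at 5.51, 8.18 and 5.42 FPKM with BHB and 5.12, 4.59 and 5.06 FPKM in controls (log2 fold change 0.30, 95% interval -0.01 to 0.61, limma adjusted p = 0.881), with BHB 2 highest and no overlap between groups. Without BHB 2 the log2 fold change of Fosl1 was 0.13. Wisp1, a secreted matrix protein, was at 1.5, 1.77 and 2.21 FPKM with BHB and 1.02, 1.79 and 1.45 FPKM in controls (log2 fold change 0.23, limma adjusted p = 0.890), with overlapping groups. Its log2 fold change was 0.11 without control 1 and 0.13 without BHB 3. Id2 was the most abundant target at means of 296.0 FPKM with BHB and 308.5 FPKM in controls.

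**Figure D5:**
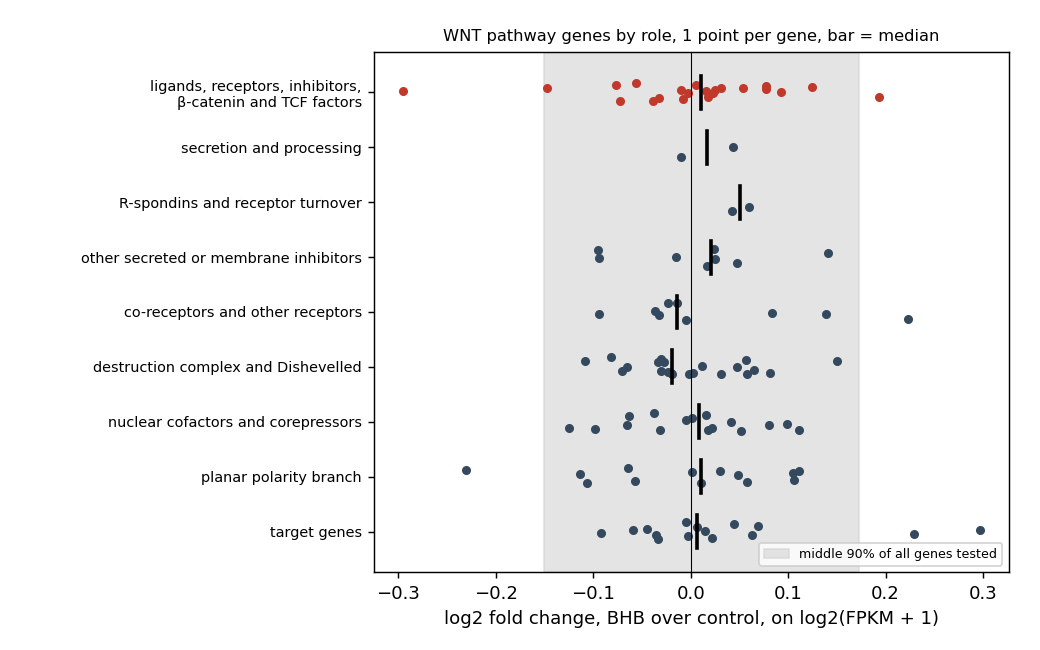
Log2 fold changes (BHB over control, on log2(FPKM + 1)) of the 22 WNT genes tested (top row, red) and of the other pathway genes by role (dark blue), with a bar at each median and a grey band over the middle 90% of all genes tested (-0.15 to 0.17). The medians lie close to 0, and Dkk3, Fzd5, Prickle3, Adgra2, Wisp1 and Fosl1 are the points outside the band.

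The libraries had 12288 to 12312 genes at 1 FPKM or more each and pairwise correlations of 0.990 to 0.993. The 12 astrocyte markers, all tested, summed to 8739 to 8947 FPKM with BHB and 8325 to 8837 FPKM in controls, with Vim the most abundant. Slc1a3 was the single one that passed, with means of 455.2 FPKM with BHB and 202.7 FPKM in controls. These sums include it, so part of the difference between them is that of Slc1a3 alone. Fibroblast, leptomeningeal and mural markers, led by Tagln, summed to 4641 to 5026 FPKM with BHB and 4488 to 4863 FPKM in controls. Dcn, Lum, Slc6a13 and Foxc1 of that list were under 1 FPKM in every library. Among the 8 tested, Acta2 had means of 1334 FPKM with BHB and 1285 FPKM in controls. Col1a2 had 266.2 and 270.9 FPKM, and Pdgfrb 26.2 and 26.8 FPKM. The 11 microglia markers used summed to 56.2 to 58.1 FPKM with BHB and 54.7 to 59.7 FPKM in controls, led by C1qb, with P2ry12 under 1 FPKM. Neuron markers summed to 98.9 to 101.2 FPKM with BHB and 100.4 to 104.3 FPKM in controls, led by Stmn2. Oligodendrocyte lineage markers summed to 95.1 to 99.1 FPKM with BHB and 92.5 to 97.9 FPKM in controls, led by Cnp. Ependymal markers summed to 33.8 to 39.5 FPKM with BHB and 35.2 to 39.1 FPKM in controls, led by Foxj1, with Tmem212 listed at 0. Endothelial markers summed to 3.40 to 4.55 FPKM with BHB and 3.56 to 3.92 FPKM in controls, led by Eng, with Cldn5 listed at 0. No marker of these 6 other lists passed, but single markers set libraries or groups apart, named here after their values were seen. The groups did not overlap in 3 of 10 tested microglia markers, 1 of 8 neuron markers and 1 of 8 of the fibroblast list. In every tested oligodendrocyte lineage, endothelial and ependymal marker they overlapped. Of all genes tested, 10.9% had groups that did not overlap. Ttr, a transcript of choroid plexus, was at 0.872, 4.05 and 0.447 FPKM with BHB and at 0.0914, 0.0550 and 0 FPKM in controls, and was not tested. Of the microglia markers, Cx3cr1 was lower in every BHB library (log2 fold change -0.27, unadjusted p = 0.0099, limma adjusted p = 0.881), while Tmem119 (0.23) and Aif1 (0.08) were higher in every one (limma adjusted p = 0.881 and 0.910). The neuron marker Gad1 (-0.26) was lower in every BHB library, as was Cldn11 (-0.23) of the fibroblast list (limma adjusted p = 0.881 each). Nefm, another neuron marker, was not tested. It was higher in every BHB library, at 0.458, 0.612 and 0.510 FPKM with BHB and 0.332, 0.410 and 0.292 FPKM in controls. The part of these markers in the WNT values was not tested. In such bulk RNA, fewer cells of a type and less RNA per cell cannot be told apart, and which cells the WNT transcripts came from was not tested.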

How the data were processed

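The deposited table holds FPKM values made by the authors, with 1 column per library. Per the submitters' processing notes the build was rn6 and the tools included StringTie, HISAT2, DESeq2 and bcl2fastq 2.0, with no roles or settings. They state neither annotation nor strandedness, nor how transcripts were combined into genes. FPKM hold no counts, so the depth is unknown and no count model was used here.

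Libraries were grouped by their titles. Values were transformed as log2(FPKM + 1), and genes that reached 1 FPKM in 3 or more of the 6 libraries were fitted with limma 3.58.1 in R 4.3.3 (eBayes with an intensity trend, two-sided, Benjamini-Hochberg over all genes tested, threshold 0.05). The fit was also run on data simulated from its own means and variances, with an outcome not given here. Sums over a class are given without a test. An exact two-sided permutation test of group means was run for single genes. Every WNT gene was named. Of each other pathway list, the 2 genes with the smallest p and the most abundant were named, and of each marker list the most abundant; 1 marker is not reported here and was left out of its list. The genes, lists and tests were chosen with earlier results of these data known. Alternatives covered the pseudocount, filter, trend, scaling, replicate block, genes by number of decimals, and leaving out each library. Figures were drawn with matplotlib 3.10.9.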

Additional observations from a re-analysis of the deposited data

How the results depend on the processing

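None of the WNT genes or other pathway genes passed under any alternative run, and the lowest limma adjusted p of a WNT gene was 0.685, without BHB 1. Of 341 alternative values of the tested WNT genes, 317 kept their direction and 24 turned, 21 of them on leaving out a library. Over all genes, 7 passed, against 4 without the eBayes trend, 2 with the replicate block and 2 among genes with at most 6 decimals, where fewer genes were tested, and 5 to 10 on leaving out a library. The WNT genes whose groups did not overlap numbered 2, against 1 under equal sums, 1 among genes with at most 6 decimals and 2 to 7 on leaving out a library, where fewer libraries need to be separated. WNT genes at an unadjusted p under 0.05 numbered 0, against 2 without a filter (Ctnnb1 and Fzd9) and 0 to 1 on leaving out a library (Sfrp2 without BHB 3). Without a filter, 38 WNT genes among 17669 genes were tested. Shares over all genes were not computed for the alternative runs, so whether these counts differ from those of other genes cannot be said. For changes of sign other than in these counts, the cause was not tested.

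Equal sums turned the log2 fold change of Fzd3 to -0.00093, Wnt9a to -0.0062 and Vangl2 to -0.0147. Quantile normalization turned Wnt9a to -0.0049 and Vangl2 to -0.0035, and median ratio scaling turned Vangl2 to -0.0031. On leaving out a library the log2 fold change ran from -0.0242 to 0.0752 for Axin2, -0.574 to 0.187 for Dkk3 (above 0 without control 1), -0.0346 to 0.0188 for Fzd1, -0.0704 to 0.0875 for Fzd3, -0.0535 to 0.0212 for Fzd4, -0.0252 to 0.0921 for Fzd8, -0.0339 to 0.0283 for Lrp6, -0.0588 to 0.0011 for Sfrp1, -0.0245 to 0.0753 for Tcf7l2, -0.0662 to 0.0063 for Wnt5a and -0.0620 to 0.0650 for Wnt9a. Among other pathway genes it ran from -0.0043 to 0.0724 for Porcn, -0.0320 to 0.0161 for Wls, -0.0020 to 0.0980 for Znrf3, -0.0053 to 0.0788 for Lgr4, -0.0146 to 0.244 for Sost, -0.0673 to 0.0212 for Apcdd1 and -0.0176 to 0.0166 for Vangl2. Some genes were given above at or near their smallest value on leaving out a library. Their log2 fold changes ran from 0.0524 to 0.129 for Wnt7a, 0.0117 to 0.321 for Fzd5 and 0.0087 to 0.184 for Tcf7l1. They ran from -0.197 to -0.0885 for Sfrp2, -0.359 to -0.138 for Prickle3, 0.128 to 0.386 for Fosl1 and 0.106 to 0.338 for Wisp1. The log2 ratio of summed Dkk FPKM was -0.33, and 0.0487 without control 1.

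Same-numbered libraries did not all deviate together (correlations of -0.0899, 0.164 and -0.151 for numbers 1, 2 and 3), so the replicate block was not used as a pairing. Only library 2 correlated best with its own number. BHB 1 correlated best with control 3 (0.203) and BHB 3 with control 1 (0.186), and the remaining pairs were negative. Whether libraries paired in that order share a batch or culture was not tested. The depth is unknown, so how far it limits genes under 1 FPKM cannot be stated.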
